A study of Mus musculus with 42 samples.

Results

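Vimentin, S100a4, galectin 1 and the proteins that bind or move actin shape how cells with a mesenchymal form hold together and migrate. The genes described here are 10 such genes: Vim, Lgals1, S100a4, Tagln, Tpm2, Cald1, Acta2, Myh11, Mylk and Cdh11. They were chosen by name for those known roles, with earlier results of these data known. They have 12 of the 22800 probes on the array, S100a4 and Mylk with 2 probes each, and are 10 of the 15096 genes with a probe of their own. All 10 passed the filter on missing values, each through 1 probe, so that none was lost. The arrays carried RNA of 21 mammary tumours, each known by a number, with 2 arrays per tumour and 42 in all. Every tumour traces back to FVB/N-Tg(WapMyc)212Bri mice, whose c-Myc transgene is driven by the Wap promoter, active in the secretory epithelium of the gland. Lines were then derived by selection in living mice, with glandular, solid or comedo (with or without lung metastases) and spindle-cell growth. The labels do not say to which line a numbered tumour belongs, nor its treatment or the age of the mouse, and there is no normal tissue among the groups. The comparisons are therefore between tumours, and the level of a gene is the log2 ratio of tumour over a universal mouse reference RNA, as the mean of the 2 arrays.

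Vimentin is the intermediate filament protein of most mesenchymal cells and is low in differentiated epithelium. S100a4 is a calcium-binding protein that acts on non-muscle myosin and is known for its part in cell motility, and Lgals1 encodes a galectin that binds sugars on matrix and cell surface proteins. Smooth muscle cells, myoepithelial cells and activated fibroblasts share a contractile set: Acta2 (smooth muscle actin), Myh11 (smooth muscle myosin heavy chain), Mylk (the kinase that activates myosin), and Tagln, Tpm2 and Cald1 (proteins that bind actin filaments). Cdh11 is an adhesion molecule of mesenchymal cells. In the mammary gland Acta2, Myh11 and Mylk are also products of the myoepithelial layer, so that these genes do not mark a single cell type.

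Promoter sequence from RefSeq (GRCm38.p6) was at hand for 6 of the 10 genes. The windows upstream of the annotated start are shown for Vim and S100a4, because these genes had the same tumours on top with wide gaps, and for Tpm2, a contractile gene with the same 5 highest tumours but no such gap. They read 5′ to 3′ on the strand of the gene, with capitals for every match of a searched motif: TATAAA (the core of a TATA box), GGGCGG (a GC box), CAGCTG (an E-box) and TGANTCA (an AP-1 type element).
Vim, chr2:13574061-13574310, plus strand: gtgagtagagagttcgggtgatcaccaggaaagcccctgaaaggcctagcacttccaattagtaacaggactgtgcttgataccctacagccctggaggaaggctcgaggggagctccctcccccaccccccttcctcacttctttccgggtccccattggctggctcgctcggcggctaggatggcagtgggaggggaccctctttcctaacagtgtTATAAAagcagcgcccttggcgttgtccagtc
S100a4, chr3:90603520-90603769, plus strand: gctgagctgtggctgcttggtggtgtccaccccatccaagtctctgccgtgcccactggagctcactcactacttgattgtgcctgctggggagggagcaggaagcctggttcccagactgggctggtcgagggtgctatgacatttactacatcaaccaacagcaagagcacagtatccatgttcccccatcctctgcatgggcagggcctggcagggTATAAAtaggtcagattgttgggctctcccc
Tpm2, chr4:43523584-43523804, minus strand: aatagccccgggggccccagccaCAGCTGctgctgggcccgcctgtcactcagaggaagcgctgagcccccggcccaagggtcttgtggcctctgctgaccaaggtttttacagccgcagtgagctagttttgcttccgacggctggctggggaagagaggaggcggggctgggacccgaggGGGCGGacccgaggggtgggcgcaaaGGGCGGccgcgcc
Vim had TATAAA beginning 32 bases before the start and S100a4 had it 31 bases before. In the Tpm2 window CAGCTG began 227 bases before the start and GGGCGG 68 and 42 bases before it, and the bases of that window that lie within the annotated gene are not printed. Both strands were searched and no matches overlapped. Of 32851 windows of 250 bases in the RefSeq table, 12.37% held TATAAA, 32.74% GGGCGG, 13% CAGCTG and 6.749% TGANTCA. The CArG box, the motif of serum response factor, was in 1.467% of the windows and in none of those of the 6 genes, which says only that these letters were not in the windows searched.

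Several facts of the whole set of arrays touch these levels. An array had 8600 to 21328 probes with a value, with a median of 17478.5, and no counts or intensities give a depth, so the number of arrays sets the precision. The 2 arrays of a tumour correlated from -0.57 to 0.074 over probes as deposited, because dyes were swapped, and were turned to run the same way. Tumour 656, at 0.074, was the only one above 0, so its 2 arrays went against each other once turned, although its 2 values for Vim were alike. The direction of all ratios rests on taking Myc, the transgene's own gene, as positive on balance: its levels ran from -0.91 to 4.08 with a median of 1.85. Turned as a whole, every level below would change sign and every order would run the other way, while ranges and p-values would stay. The 5 tumours at the top of the Vim order had the 5 smallest loadings in the step that set the orientation, 0.104 to 0.161, against 0.185 for the next tumour. Values with these 5 turned the other way, a setting chosen after seeing the data, are therefore given beside results that depend on it. They are not given for each list or marker gene. Turned so, 22.2% of all genes differed.

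Over the 10 genes, 6 differed between tumours: Vim, Lgals1, S100a4, Acta2, Tagln and Tpm2 (limma's moderated F test, Benjamini-Hochberg adjusted p below 0.05 over 7629 genes). Of all genes tested, 1445 differed, which is 18.9%. The median range between the lowest and highest tumour was 4.68 on the log2 scale for the 10 genes and 2.88 for all genes tested. As the 10 were chosen with earlier results of these data known, these values only describe them. Myh11 and Cdh11 missed the threshold narrowly. The error in these tests is that between both arrays of an RNA, which is technical, so it holds nothing of the spread between animals, and in bulk tumours a lower share of cells of a type cannot be told apart from less RNA per cell.

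**Figure D1:**
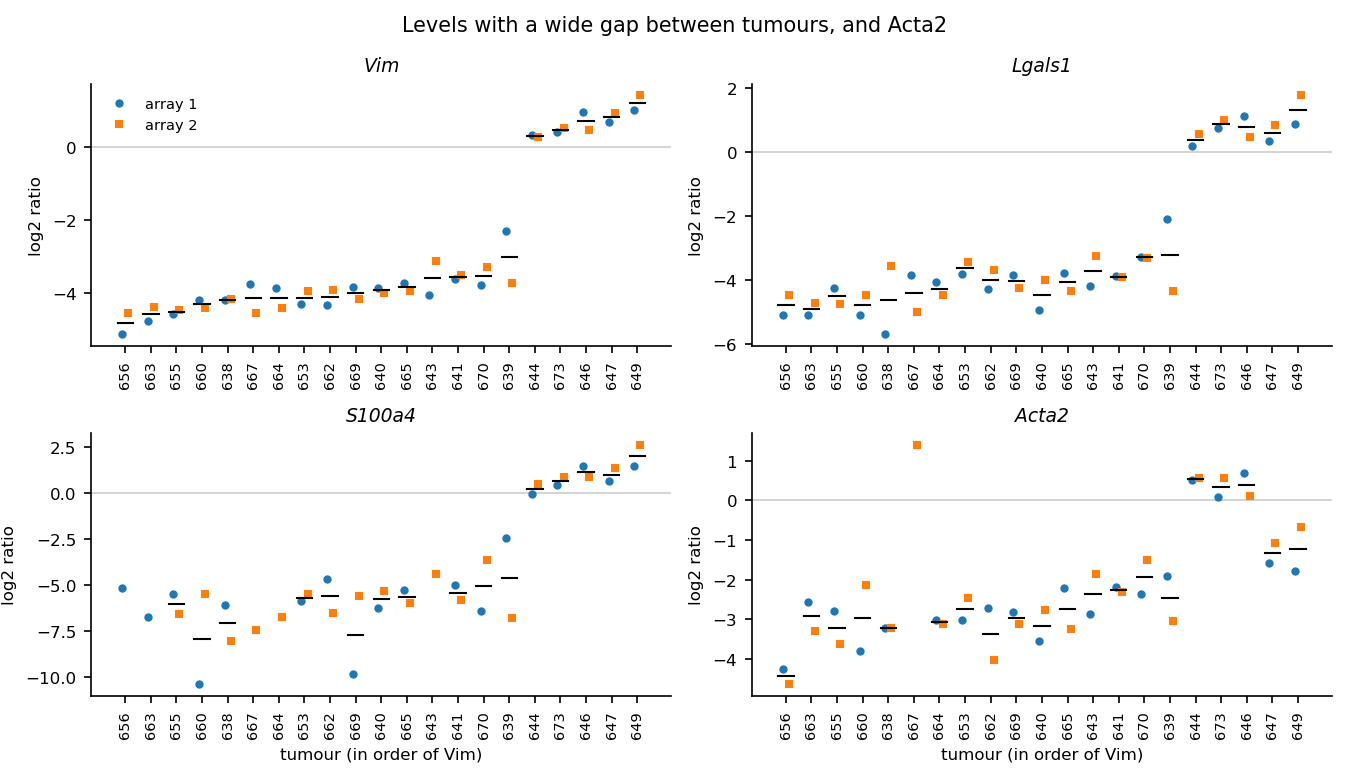
Levels of Vim, Lgals1, S100a4 and Acta2 by tumour. Each point is 1 array and each black line the mean of both arrays, as log2 ratio of tumour over reference on the y axis, with the tumours in order of Vim on the x axis. In Vim, Lgals1 and S100a4 the tumours 644, 646, 647, 649 and 673 stand above all others in the orientation used, and in Acta2 the tumours 647 and 649 lie apart from the upper 3, at -1.33 and -1.23.

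Vim gave the smallest p of all 7629 genes. Its level was -4.84 in tumour 656, the lowest, -3.94 at the median and 1.22 in tumour 649, the highest, a range of 6.06 (66.7-fold) with a standard error of 0.31 for a tumour mean (2 arrays) and an adjusted p of 8.0e-11 by limma. The standard errors given for the other genes are likewise those of a tumour mean. The order of the tumours had 1 wide step. Tumours 644, 673, 646, 647 and 649 had Vim at 0.30, 0.47, 0.73, 0.82 and 1.22. The other 16 lay between -4.84 and -3.02, with tumour 639 the uppermost of them. No tumour mean fell in the gap of 3.33 between 639 and 644, though 1 array of 639 did, at -2.30, with the other at -3.75.

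Of the 210 pairs of tumours, 82 differed in Vim by at least 1 on the log2 scale with an adjusted p below 0.05 over genes, against 2.75% of gene and pair combinations over all genes. These were the 80 pairs across the gap and tumour 639 against 656 and 663. Among neighbours in the order only 639 and 644 differed, 1 of 20, so the order within the lower 16 and within the upper 5 is not resolved beyond these 2 pairs.

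Lgals1 had nearly the same picture. It was lowest at -4.91 in tumour 663, had a median of -4.00 and was highest at 1.32 in tumour 649, a range of 6.22 (74.7-fold) with a standard error of 0.45 and an adjusted p of 2.5e-08. Tumours 644, 647, 646, 673 and 649 read 0.38, 0.60, 0.79, 0.88 and 1.32, and tumour 639 came next at -3.23 after a gap of 3.61. All 80 pairs across that gap differed and no others did.

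S100a4 had the largest range of the 10 genes. Both arrays had a value in 16 tumours, with the lowest mean at -7.94 in tumour 660, the median at -5.51 and the highest at 2.03 in tumour 649. The range was 9.96 (998-fold) and the standard error of a tumour mean 1.06, and the 2 arrays of tumour 660 read -10.38 and -5.50, so the low end is loosely known. The adjusted p was 2.9e-04. Tumours 644, 673, 647, 646 and 649 read 0.22, 0.64, 1.00, 1.16 and 2.03, and a gap of 4.85 parted them from 639 at -4.63. The tumours with 1 array only, 643, 656, 663, 664 and 667, read -4.43, -5.17, -6.74, -6.75 and -7.45 and lay on the low side too. A total of 61 pairs differed, all of them across the gap, and none of the 15 neighbour pairs did.

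**Figure D2:**
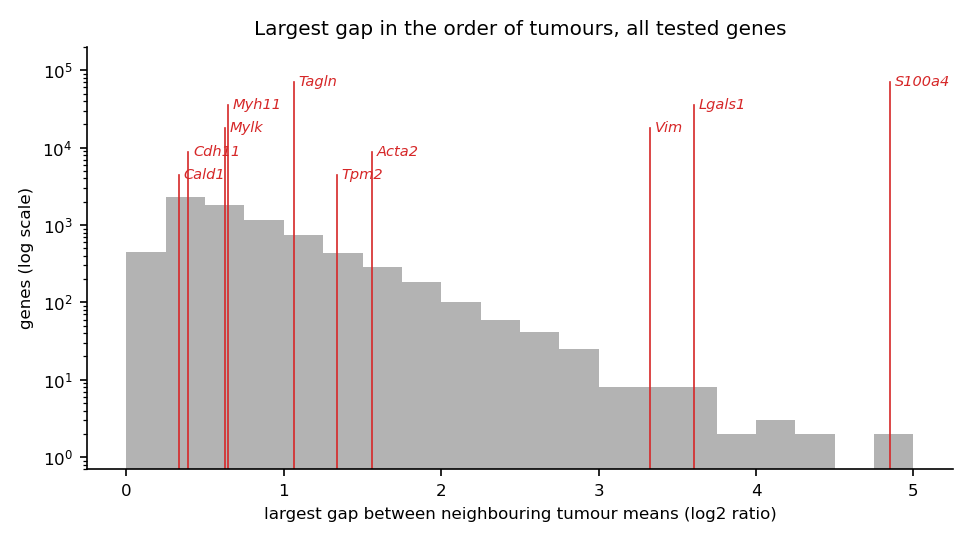
Largest gap between neighbouring tumour means for all 7629 genes tested (x axis, log2 ratio) against the number of genes (y axis, log scale), with red lines at the 10 genes. S100a4 at 4.85, Lgals1 at 3.61 and Vim at 3.33 lie in the thin right end, while the other 7 genes are at 1.56 or less.

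A gap of at least 3 with at least 3 tumours on each side was found for 8 of 7629 genes, which is 0.105%. Besides S100a4, Lgals1 and Vim these were Col18a1, with a gap of 4.38, Fbln2 with 3.56, Col6a3 with 3.47, Lrp1 with 3.01 and Igfbp4 with 3.00. The first 3 of those are matrix genes, Lrp1 encodes an endocytic receptor and Igfbp4 a binder of insulin-like growth factors. In all 8 genes the tumours above the gap were 644, 646, 647, 649 and 673. The median largest gap over all genes was 0.63. With the 5 tumours turned the other way the gaps were 2.60 for S100a4, 1.91 for Lgals1 and 1.81 for Vim, and 20 other genes had a gap of at least 3.

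The upper tumours did not come from a single slide run, a stretch of running numbers in the titles that the labels do not call a batch. Of tumours with both arrays in 1 run, Vim ran from -4.20 to 0.30 over the 4 tumours of run 1, with 644 on top, from -4.84 to -4.13 over the 5 of run 2, and from -4.16 to 1.22 over the 8 of run 3, where 647, 649 and 673 were above the gap. Tumour 646 had 1 array in run 1 and 1 in run 3. With slide run as a block in the fit, the adjusted p was 5.7e-09 for Vim, 1.4e-06 for Lgals1 and 0.0025 for S100a4, and 586 of all genes differed (7.68%).

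If the 5 tumours were turned the other way, Vim there would read -1.22 to -0.30, Lgals1 -1.32 to -0.38 and S100a4 -2.03 to -0.22. All would still lie above every other tumour mean, with 644 on top for each gene. The range would shrink to 4.54 for Vim (adjusted p 1.1e-08, limma) and to 7.72 for S100a4 (adjusted p 0.00586).

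Among the contractile genes, Acta2 differed most clearly. Over 20 tumours it was lowest at -4.44 in tumour 656, had a median of -2.74 and was highest at 0.54 in tumour 644, a range of 4.98 (31.5-fold) with a standard error of 0.42 and an adjusted p of 1.2e-05. Tumours 644, 646 and 673 read 0.54, 0.40 and 0.33, and a gap of 1.56 parted them from 649 at -1.23 and 647 at -1.33. The same 5 tumours as for Vim were thus the highest, but 649, the top tumour for Vim, was not among the upper 3. With the 5 turned the other way they were still the highest 5, but 647 and 649 led, at 1.33 and 1.23, and 673, 646 and 644 followed at -0.33, -0.40 and -0.54 (range 5.77, adjusted p 1.8e-06). Of 210 pairs 65 differed. Tumour 667 entered the fit with 1 array, at 1.39, and 17 of the 65 pairs involve it.

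Tagln, which encodes transgelin, ran from -2.90 in tumour 656 through a median of -1.24 to 1.48 in tumour 644, over 20 tumours. The range was 4.38 (20.8-fold) with a standard error of 0.40 and an adjusted p of 3.9e-04. Tumours 644, 673 and 646 were again the upper 3, at 1.48, 0.67 and 0.47. Of the tumours with both arrays, 665 followed at -0.59, 649 at -0.78, and 647 at -1.19, near the median. Tumour 670 had 1 array only, at -0.16, above 665. For this gene, then, 647 was not among the 5 highest, and 32 pairs of tumours differed. With the 5 turned the other way 647 and 649 were the highest, at 1.19 and 0.78, and 644 read -1.48 (range 4.09, adjusted p 8.2e-04).

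Tpm2, a tropomyosin that covers the myosin sites on actin, varied mainly at the low end. It was -4.83 in tumour 640, -3.49 in 641 and -3.20 in 656, had a median of -0.71, and was highest at 1.63 in tumour 673 and 1.22 in 649. The range was 6.46 (88.2-fold) and the standard error of a tumour mean 0.78, with an adjusted p of 0.0054. The 2 arrays of tumour 640 read -7.45 and -2.21, so its place at the bottom is uncertain, and 17 pairs differed. Tumours 647, 646, 644, 649 and 673 were the highest, at 0.29, 0.91, 1.04, 1.22 and 1.63, but 643 and 670 followed closely at 0.02 and -0.04. With the 5 tumours turned the other way 643 and 670 were the highest, the 5 read -1.63 to -0.29, the range was 4.86 and the adjusted p 0.056.

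Myh11 had values from -2.14 in tumour 663 through a median of -0.21 to 1.39 in tumour 673 over 20 tumours. The range was 3.53 (11.5-fold), with a standard error of 0.59 and an adjusted p of 0.053. Tumours 673 and 649 were highest at 1.39 and 1.36, followed by 643 at 0.71, and 647 read -0.12, near the middle. After centring each array on its median, when 19.6% of all genes differed, the adjusted p was 0.0023, and with slide run as a block it was 0.26, so the call rests on the processing. It also passed without 1 array of tumour 647, 656, 660, 662, 663, 665 or 667, with an adjusted p down to 0.0133. With the 5 tumours turned the other way 673 and 649 read -1.39 and -1.36, 643 was the highest, and the adjusted p was 0.24.

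**Figure D3:**
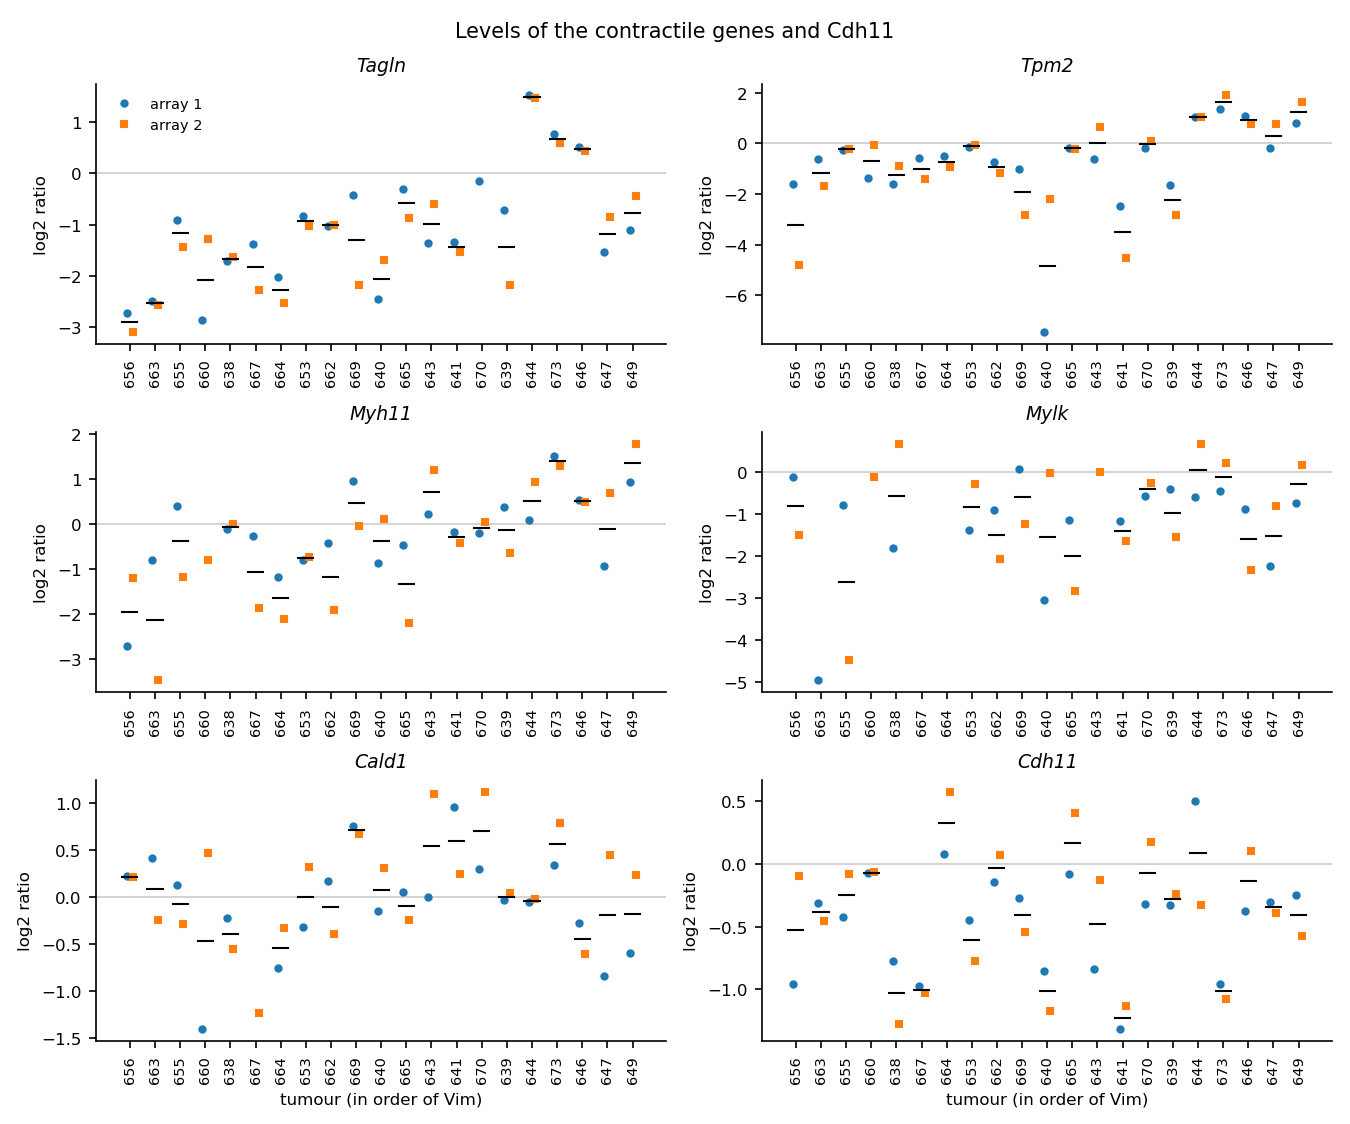
Levels of Tagln, Tpm2, Myh11, Mylk, Cald1 and Cdh11 by tumour, as log2 ratio of tumour over reference on the y axis, with points for arrays and black lines for means of both arrays, the tumours in order of Vim. Tagln and Tpm2 have their highest levels, 1.48 and 1.63, at the right end, whereas Cald1 stays between -0.54 and 0.72, Cdh11 between -1.22 and 0.33, and the tumours on top for Vim are not set apart in either.

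Mylk and Cald1 gave no call in the fit reported here. Mylk, over 16 tumours, was -2.62 in tumour 655, -0.91 at the median and 0.04 in tumour 644 (standard error 0.81, adjusted p 0.41). With dye orientation as a covariate, when 45.1% of all genes differed, the adjusted p was 0.0265, and with slide run as a block it was 0.62. Of its values, 20% were log2 of ratios of whole numbers up to 10, near the 19.86% of all values on the arrays. No Vim value was of that kind. Tumours 644, 673 and 649 were the highest and 646 and 647 among the 5 lowest, so the upper tumours of Vim were spread over the whole order. With the 5 turned the other way they were the 5 highest, from -0.04 in 644 to 1.60 in 646 (adjusted p 0.094). Cald1, over 20 tumours, ran only from -0.54 in tumour 664 through -0.02 to 0.72 in tumour 669 (2.39-fold, standard error 0.39, adjusted p 0.49), and no pair differed. The standard deviation of its tumour means was at percentile 5.35 of all genes, against 99.46 for Vim and 99.97 for S100a4.

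Cdh11 had a narrow range as well. It was lowest at -1.22 in tumour 641, had a median of -0.38 and was highest at 0.33 in tumour 664, a range of 1.55 (2.93-fold) with a standard error of 0.27 and an adjusted p of 0.068. Tumour 673, high in Vim and highest in Tpm2 and Myh11, was the third lowest at -1.02. Of 12 other settings, 7 gave a call. With each array centred on its median the adjusted p was 0.13, after quantile normalization 0.31 and with slide run as a block 0.14. The adjusted p was 0.035 without tumour 656 and 0.0069 with dye orientation as a covariate. In that last setting 45.1% of all genes differed. With the 5 tumours turned the other way 673 was the highest, at 1.01, and the adjusted p 0.00605 with a range of 2.24.

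Tumours 644, 646, 647, 649 and 673 were the 5 highest for 5 of the 10 genes: Vim, Lgals1, S100a4, Tpm2 and Acta2. Over all genes tested, 395 of 7629 had the same 5 on top, which is 5.18%. The 10 genes therefore did not share 1 order, since Tagln, Myh11, Mylk, Cald1 and Cdh11 each had at least 1 other tumour among their highest 5. With the 5 turned the other way the count was again 5 of 10, with Mylk in the place of Tpm2, beside 4.99% of all genes.

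How the genes moved together was measured within groups of tumours where a gene's levels fell into groups by a mixture model, and over all tumours where neither gene of a pair did, because an r across a gap is set by the gap. The model found 2 groups for Vim and Lgals1 (16 and 5 tumours), 3 for S100a4 (3, 8 and 5) and 3 for Acta2 (10, 7 and 3). It also found 3 for Cald1 (4, 11 and 5) and 2 for Cdh11 (5 and 16), although neither gene was called as differing between tumours. Tagln, Tpm2, Myh11 and Mylk had 1 group each. Of 49 relations of the 45 gene pairs, 7 passed a two-sided permutation test with p-values adjusted over the 49, and all 7 were positive. Random pairing takes the tumours as independent, while some may share a line, which the labels do not give. Among the 16 lower tumours Vim and Lgals1 correlated at r = 0.84 (rho = 0.87, permutation p = 2e-05, adjusted p = 9.8e-04) and at 0.77 without the 2 tumours farthest from the median. With each array centred on its median this r was 0.85. Both genes were read on the same arrays, so an error shared by an array enters both. In tumour 639 the 2 arrays read -2.30 and -3.75 for Vim, and -2.11 and -4.34 for Lgals1. The part of such shared error in this and the other relations was not tested.

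Vim and Acta2 correlated at r = 0.78 over 15 lower tumours (rho = 0.72, permutation p = 6.9e-04, adjusted p = 0.016). Lgals1 correlated with Acta2 at 0.70 (rho = 0.64, permutation p = 0.0023, adjusted p = 0.022) and with Tagln at 0.68 (rho = 0.70, permutation p = 0.0058, adjusted p = 0.040). The 3 gave r = 0.76 once the 2 outermost tumours were left out. For Lgals1 and Acta2 the adjusted p of rho was 0.056.

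Tagln correlated with Tpm2 over 20 tumours (r = 0.68, rho = 0.77, permutation p = 0.0013, adjusted p = 0.016) and with Myh11 over 19 (r = 0.68, rho = 0.63, permutation p = 9.7e-04, adjusted p = 0.016). They fell to 0.60 and 0.63 without the 2 outermost tumours. Over the 7 tumours of slide run 3 the values were 0.68 (exact permutation p = 0.087) and 0.80 (exact permutation p = 0.016). Acta2 and Myh11 correlated at r = 0.83 (rho = 0.85, permutation p = 0.0032, adjusted p = 0.026) over the 10 tumours of 1 Acta2 group, and at 0.60 without the outermost 2. That group ran from -4.44 to -1.23 in Acta2 and enclosed the group of 7, at -3.22 to -2.93, so no gap set it off. Over 6 tumours of the enclosed group r went the other way, at -0.42 (exact permutation p = 0.38). The other runs had too few tumours for a value, and so had every run for the relations among lower tumours.

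By contrast, Vim and S100a4 reached r = 0.64 over 11 lower tumours (permutation p = 0.032, adjusted p = 0.14), with rho = 0.80 (adjusted p = 0.031). Vim gave -0.04 with Tpm2 (permutation p = 0.88) and -0.03 with Cdh11 (permutation p = 0.93) over 16. Without tumour 656, the lowest tumour for several of the genes, only Vim and Lgals1 remained past the threshold, at r = 0.83. The 5 upper tumours were too few for a correlation. The relations of Tagln with Tpm2 and Myh11 and that of Acta2 with Myh11 include tumours from above the Vim gap, so they rest on the orientation used. With the 5 turned the other way 3 relations passed.

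**Figure D4:**
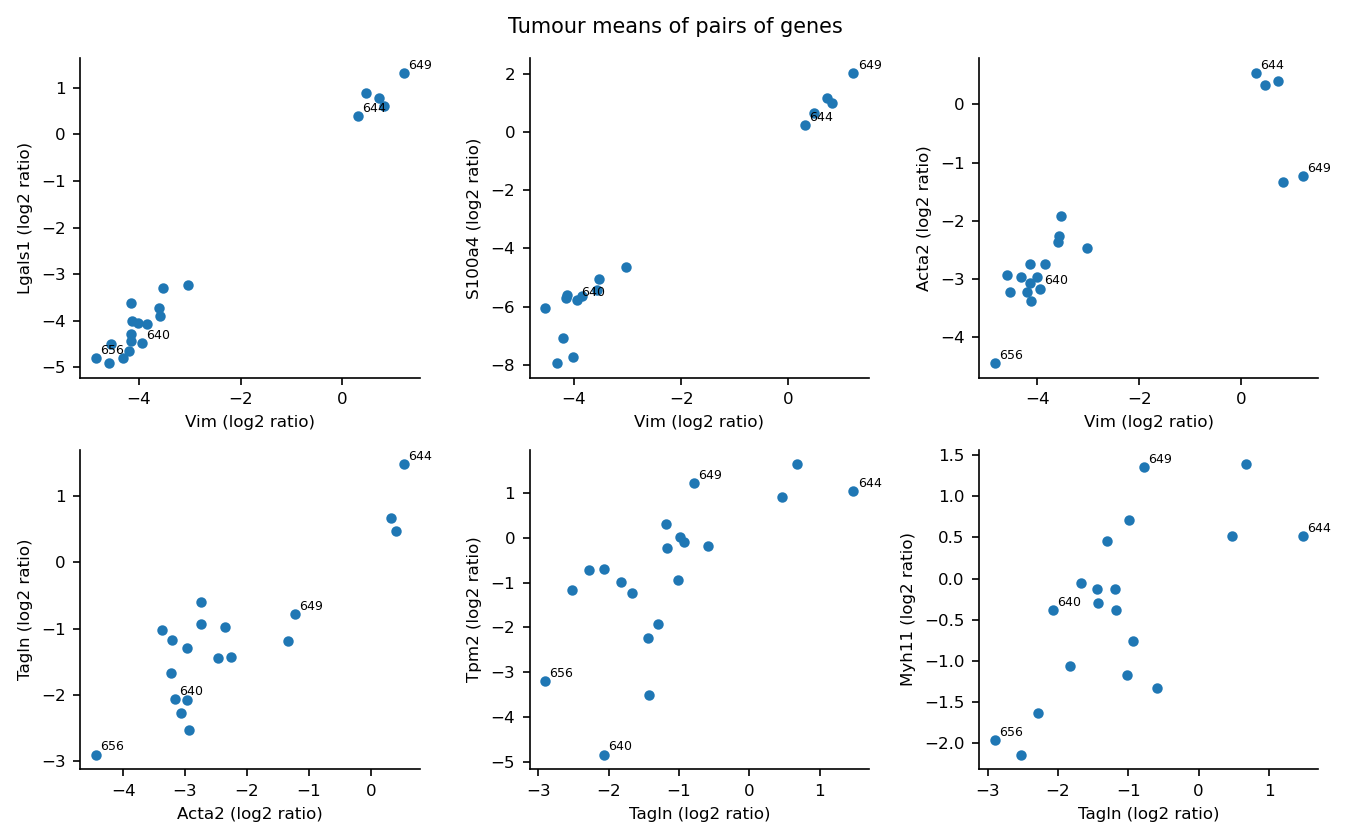
Levels of 6 pairs of the genes, 1 point per tumour with a mean of both arrays, both axes as log2 ratio of tumour over reference, and the tumours 640, 644, 649 and 656 named. Vim with Lgals1 or S100a4 gives 2 clouds with an empty space between them, while Tagln with Tpm2 or Myh11 gives 1.

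The genes of which the tumour pattern was most like that of Vim over all tumours were Lgals1 (r = 0.99, 21 tumours), Lrp1 (0.99, 20 tumours) and S100a4 (0.98, 16 tumours). These values share the gap. Within the lower tumours, r was 0.84, 0.88 and 0.64, the last over the 11 that had S100a4 on both arrays. Lgals1 was nearest to Vim, S100a4 and Col18a1 (0.98), and S100a4 to Lgals1, Vim and Fhl3 (0.98). For all 3 genes the lowest r was that of Lcn2, which encodes lipocalin 2, a secreted protein of epithelia and neutrophils: -0.91 with Vim, -0.91 with Lgals1 and -0.94 with S100a4, though 0.03 with Vim in the lower 16.

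The contractile genes had other neighbours. Acta2 was most like Col1a2 (r = 0.97, 20 tumours), Thbs2 (0.96, 17) and Col1a1 (0.95, 20), which encode fibrillar collagen chains and a matricellular thrombospondin, and least like Rbm47 (-0.88, 17). Tagln was most like Mmp14 (0.88, 20), a membrane matrix metalloproteinase, Acta2 (0.87, 19) and Lox (0.86, 18), an enzyme that crosslinks collagen, and least like Rab26os (-0.82, 17). Tpm2 was nearest to Basp1 (0.89, 21), Plod2 (0.87, 20) and Ccl9 (0.84, 20) and farthest from Atp5a1 (-0.90, 20). Myh11 was nearest to Col14a1 (0.92, 16), Crtap (0.92, 20) and Mt3 (0.91, 20) and farthest from St6gal1 (-0.75, 18).

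The remaining 3 genes, none of them called, had less close neighbours. Mylk was nearest to Ccdc90b (0.83, 15), Pdcd7 (0.81, 15) and Ube2j1 (0.81, 16), and farthest from Acaca (-0.61, 15). Cald1 was nearest to Gstcd (0.85, 20), Reps1 (0.82, 19) and Unc13a (0.81, 15) and farthest from Vma21 (-0.65, 16). Cdh11 was nearest to Malat1 (0.82), Xpnpep1 (0.81) and Luc7l2 (0.80), all over 21 tumours, and farthest from Taf11 (-0.88, 17). Within the largest group of Cald1, of 11 tumours, r was 0.03 with Gstcd, 0.31 with Reps1, 0.14 with Unc13a and -0.72 with Vma21. Within that of Cdh11, of 16 tumours, it was 0.58 with Malat1, 0.53 with Xpnpep1, 0.62 with Luc7l2 and -0.83 with Taf11. Neither Mylk, Cald1 nor Cdh11 had another of the 10 genes among its nearest. Likeness rests on the orientation used and was not measured with the 5 tumours turned.

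Other genes of the same cell machinery were counted in 7 lists, 6 of which are described one by one. Together the lists had 77 tested genes, of which 45 differed between tumours (58.4%) and 33 had the 5 highest tumours of Vim (42.9%), beside 18.9% and 5.18% of all genes. With the 5 tumours turned the other way 35 differed and 9 had these 5 on top (11.7%). The lists were drawn up with earlier results of these data known and name genes by function, so the counts describe them and are not evidence for a direction.

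Of the contractile apparatus and its regulators, 10 of 18 tested genes differed, and 9 had the Vim tumours on top. Tpm1, another tropomyosin, was lowest in tumour 663, at -4.31, and highest in 646, at 1.44 (adjusted p 1.6e-08), Cnn3, a calponin, from -2.28 to 1.02 (2.0e-05), and Myh9, a non-muscle myosin, from -2.16 to 1.55 (4.6e-05). Cnn1, the calponin of smooth muscle, had a range of 3.97 with an adjusted p of 0.43. Tpm1 and Myh9 are made in many cell types, while Cnn1 is largely held to smooth muscle and myoepithelium.

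Of actin turnover and motility, 14 of 19 genes differed, the second largest share, and 13 had the Vim tumours on top. Msn, which links actin to the membrane, was lowest in tumour 663, at -3.60, and highest in 649, at 1.53 (adjusted p 4.0e-08), Gsn, a filament severing protein, from -5.12 to 0.49 (1.2e-05), and Capg, a capping protein, from -3.53 to 2.19 (8.1e-05). Pdlim7 had a range of 4.04 with an adjusted p of 0.051. With slide run as a block 6 of the 19 differed, and 7 with the 5 tumours turned the other way.

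Of the S100 proteins and the 2 annexins that bind them, 8 of 9 differed and 5 had the Vim tumours on top. S100a10 had its extremes in tumours 663 and 649, at -2.79 and 1.35 (adjusted p 1.0e-07), S100a11 from -2.90 to 0.84 (2.0e-06) and Anxa1 from -3.30 to 0.85 (2.2e-06). S100a8, a neutrophil protein, had its highest level in tumour 660, at 4.06 (adjusted p 0.030), the tumour with the lowest S100a4 mean. With slide run as a block the adjusted p of S100a8 was 0.20. That S100a4 mean came from arrays at -10.38 and -5.50. S100a1 had a range of 3.88 and an adjusted p of 0.35.

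Of other intermediate filaments, 5 of 7 differed, against 2 with slide run as a block and 3 with the 5 tumours turned the other way. Krt19, a keratin of luminal cells, was lowest where Tpm2 and Myh11 were highest, at -2.93 in tumour 673. It peaked at 2.31 in tumour 663 (adjusted p 1.8e-04). Krt8 (0.0070) and the lamin gene Lmna (0.0095) were both highest in 649. The places of 673 and 649 rest on the orientation used. Turned the other way, 673 read -1.63 for Tpm2 and -1.39 for Myh11, and its Krt19 level would change sign. Krt8 was then lowest in 649, at -3.24. Krt7 had a range of 4.71 with an adjusted p of 0.25.

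The list of galectins and the list of cadherins and catenins had shares of calls of 14.3% and 33.3%, on either side of the 18.9% of all genes. Of the other galectins, counted with Lgals3bp, 1 of 7 differed in the fit reported here. Over the other settings 0 to 5 differed, with 4 when dye orientation was a covariate. The 1 was Lgals9 (range 3.50, adjusted p 0.035), and Lgals3bp, whose product binds galectin 3, had a range of 5.56 with an adjusted p of 0.42. Of cadherins and catenins, 2 of 6 differed, the catenin genes Ctnnb1 (adjusted p 0.0017) and Ctnna1 (0.0022). No tested cadherin gene of the list was called, and Cdh6 had a range of 4.46 with an adjusted p of 0.51. No gene of either list had the Vim tumours as its highest 5.

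**Figure D5:**
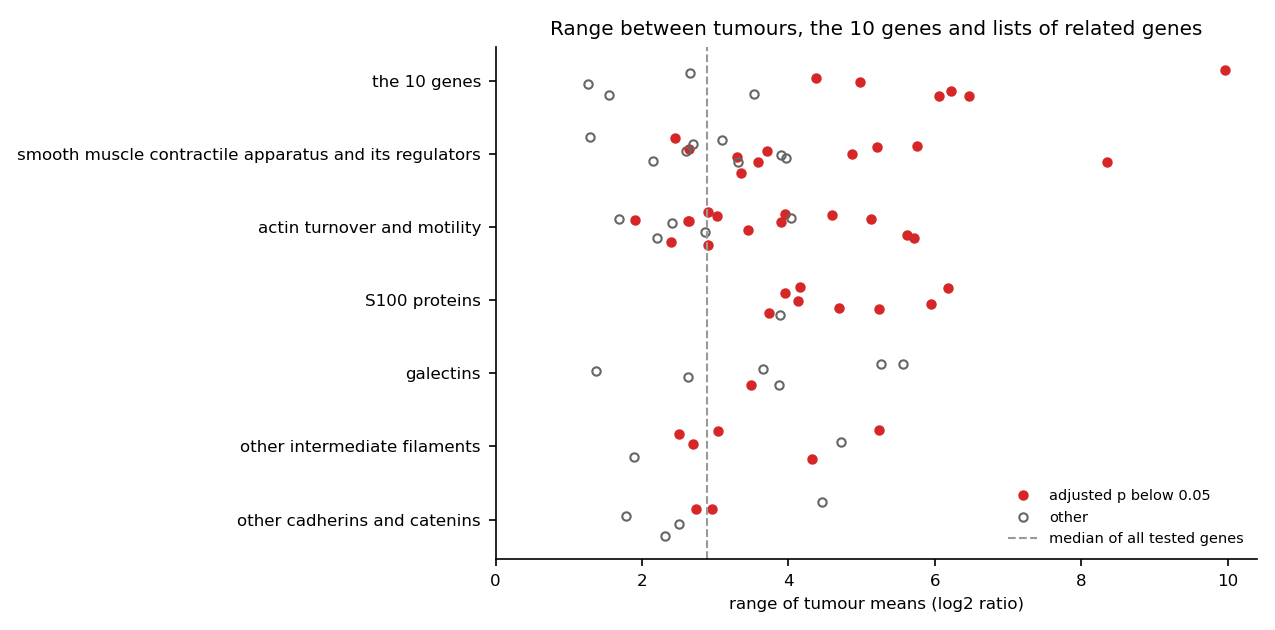
Range between the lowest and highest tumour mean (x axis, log2 ratio) for each tested gene of the 10 and of the 6 lists described here, 1 point per gene, spread vertically within a row for legibility. Red points had an adjusted p below 0.05, open ones did not, and the dashed line is the median range of all genes, 2.88. S100a4 has the largest range shown, 9.96, and wide ranges also occur without a call, as in the galectin row.

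Markers of the cell types that a mammary tumour can hold were counted in the same fit, in which 18.9% of all genes differed. Of 10 tested epithelial markers 6 differed, and the median of the list was lowest in tumours 646 (-1.56), 647 (-1.10), 673 (-0.79), 649 (0.10) and 644 (0.56), the 5 on top for Vim, and highest at 3.76 in tumour 667. Epcam, an epithelial adhesion molecule, was -3.13 in tumour 646 and 3.69 in tumour 667, its lowest and highest (adjusted p 1.9e-08). Turned the other way, Epcam read 3.13 in 646 and was lowest in 644, at 0.02. With the 5 tumours turned the other way the medians were 1.56 in 646, 1.10 in 647, 0.79 in 673, -0.10 in 649 and -0.56 in 644, so that 644, 649 and 673 were the lowest 3 and 646 lay near the middle. Not every epithelial marker was low in these 5 tumours. Krt8 (adjusted p 0.0070, limma) read 2.21 in 646 to 3.24 in 649, with all 5 above its median of 1.94. Turned the other way, the 5 were its lowest, at -3.24 to -2.21.

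Of 6 tested fibroblast markers 5 differed, and their median ran from -2.89 in tumour 656 to 2.02 in tumour 646. The same 5 tumours were highest, the fifth at 0.80 and the next tumour at -1.11. With the 5 turned the other way 647, 649 and 673 were the highest, at -0.80, -0.83 and -0.99, while 644 and 646, at -1.45 and -2.02, were not set apart from the others. In the orientation used, Col1a1 also had its extremes in 656 and 646, at -2.90 and 3.08 (adjusted p 4.7e-09). Turned the other way, 646 was its lowest tumour, at -3.08, and 670 its highest, at -0.65. Of 7 macrophage markers 6 differed, with medians from -2.80 in tumour 663 to 1.88 in tumour 649, and 641, 644, 646, 647 and 649 on top. With slide run as a block 2 of the 7 differed, and with the 5 tumours turned the other way their medians were -1.88 to -0.87, none of them among the highest 5. In the orientation used, 641, which is low in Vim, had a high macrophage median, and 673 was not among the 5.

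Skeletal muscle gave 2 calls of 5 genes, over 19 tumours. Acta1, the skeletal actin, spanned -0.04 (tumour 641) to 7.54 (tumour 673, adjusted p 8.4e-04), and Des, an intermediate filament of muscle, from -3.17 in 641 to 5.18 in 673 (0.0016). Tumour 673 was also the highest for Tpm2 and Myh11, and 641 the second lowest for Tpm2. Turned the other way, the muscle median of 673 was the lowest, at -5.18. Pericyte and vascular smooth muscle markers had 1 call of 4, which is Des, with medians from -0.61 in tumour 663 to 2.64 in tumour 639. Myoepithelial markers had 1 call of 2 and medians from -1.88 to 2.87, endothelial markers 0 of 4 with medians up to 1.52, and adipocyte markers 0 of 3 with medians from -1.29 to 1.72. The part of any of these cell types in the levels of the 10 genes was not tested.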

How the data were processed

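RNA of 21 tumours was set against a universal mouse reference on dye-swapped pairs of two-colour arrays, per the labels. The authors deposited log2 ratios between the dyes, as the values show. How background was corrected, whether values were normalized or centred, and which dye each array carried is not given in the sources used here, and the labels' protocol breaks off before image processing. The table's repeated top value, 16.61 (the log2 of 100000 on this scale), was taken as missing. Arrays were turned by the sign that each tumour had on the leading eigenvector of the correlations between within-tumour differences, and the whole was signed so that Myc had a positive median. Values were not centred.

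Probes with both arrays of at least 15 tumours measured were averaged per gene (7629 genes, by platform annotation). limma 3.58.1 in R 4.3.3 fitted tumour as a factor; tumours with 1 array stayed in the fit, while tumour means needed both arrays. The threshold was an adjusted p of 0.05. Pairwise contrasts were adjusted over genes and needed a difference of at least 1. Correlations used 100000 random pairings (exact below 10 tumours) and groups from mclust 6.1.1. The code was tested on simulated data. All 10 genes were named. Named from each list were the called genes with the 3 smallest p and the uncalled gene of widest range, and for likeness the 3 highest and the lowest r. Of the marker lists, Epcam, Col1a1 and Acta1 were named. Genes outside these rules (S100a8, Des, Krt8 as a marker, the genes with wide gaps) were chosen after their values were seen. The separate result of 1 list is not reported here. The 10 genes and all lists were chosen with earlier results of these data known. Alternatives covered centring, quantile normalization, dye and slide run terms, filters, orientation, tumour 656 and each array left out.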

Additional observations from a re-analysis of the deposited data

How the results depend on the processing

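No paired analysis was possible because the array numbers within a tumour only name arrays in accession order and pair nothing between tumours. The 6 calls among the 10 genes were 4 to 9 under the planned and added settings and 6 to 8 with single arrays left out. With both arrays of 21 tumours asked for, only Vim, Lgals1, Tpm2 and Cdh11 were tested, and all 4 were called. The 9 were reached with dye orientation as a covariate, when 45.1% of all genes differed. Vim kept its call in all settings and in all fits with a single array left out. In the latter its range was 5.81 to 6.35 and its adjusted p 2.0e-11 to 1.1e-09. The count over all genes, 1445, was 3437 with dye orientation as a covariate, 586 with slide run as a block, and 1159 to 2437 with single arrays left out (2437 without the second array of tumour 660). List genes, 45, numbered 26 with slide run as a block and 37 to 50 with single arrays left out. The 7 relations between genes became 3 after quantile normalization, 1 with both arrays of 21 tumours asked for, which leaves 4 of the genes, 1 without tumour 656, and 2 to 11 with single arrays left out. Those furthest off were 11 and 2 without either array of tumour 643, 4 without an array of tumour 660, and 3 without an array of tumour 649, 663 or 665. With the orientation of the 5 tumours reversed, a setting chosen after seeing the data, 3 relations were left, and with dye orientation added 3903 genes differed. The causes were not tested. Having 2 arrays per tumour limits all levels.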

Other observations

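The second probes of S100a4 and Mylk were too sparse to be tested. The second S100a4 probe had both arrays in 8 tumours, from -2.29 in tumour 655 to 1.29 in tumour 673, and 42.3% of its values were log2 of ratios of whole numbers up to 10. In tumours 673 and 649 it read 1.29 and 1.24, and in 646 it read -0.45. Tumours low on the tested probe were not set apart on the second: 667 read 0.75, level with 647 at 0.74, and 662 read -0.40, above 646. The second Mylk probe had both arrays in 6 tumours, from -3.20 in tumour 653 to 1.47 in tumour 643, and there tumours 644 and 649 read -1.48 and -1.73, where the tested Mylk probe read 0.04 and -0.28.

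The repeated top value stood in 1 array of the tested S100a4 probe, in tumour 656, in 2 of the second probe, in tumours 665 and 670, and in 1 of the second Mylk probe, in tumour 646. All were arrays with the tumour in the denominator in the orientation used. Acta2 in tumour 667 had 1 array only, at 1.39, above every tumour mean of that gene, while Vim and Lgals1 there read -4.16 and -4.43.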
